A study of Mus musculus with 18 samples.

Results

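RNA of all 10 circadian clock genes described here was counted in every group of mouse synovial macrophages. Even so, Nr1d1, Per3, Cry1 and Dbp each had at most 3 counts in 1 or more libraries, and Nr1d1 had 0 counts in some. The 10 are the nuclear receptors Nr1d1 and Nr1d2, the period genes Per1, Per2 and Per3, the cryptochrome Cry1, the activators Arntl (Bmal1) and Clock, and the output genes Dbp and Tef. The genes were chosen by symbol, 10 of the 24421 symbols in the count tables, by a rule that names no measured value but was written with earlier results of these data known. Bulk RNA was sequenced from 3 sorted subsets, each without treatment and 8 h after intravenous immune complexes (IC) of ovalbumin and rabbit antibody to ovalbumin, which gave 6 groups of 3 libraries and 18 libraries in all. The subsets were MHCII-Ly6C-LYVE1+CX3CR1+ macrophages, called LYVE1+CX3CR1+ below, whose markers are those of the lining of the joint cavity, and the MHCII+CD11c- and MHCII+CD11c+ macrophages, which the study places in the interstitium. All mice were C57BL/6 (C57BL/6J in the methods) with no engineered allele, of both sexes, aged 8 to 20 weeks and kept under 12 h of light and 12 h of dark. The untreated mice are labelled only as healthy controls, with no mock injection stated. Each library pooled the cells of 3 mice, taken after perfusion, collagenase digestion and flow sorting, so a library is 1 pool and not 1 animal. The labels and methods give no clock hour of collection for either arm, so a difference in the hour of collection and an effect of IC cannot be told apart in any comparison of IC with untreated mice.

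The clock runs as a loop of transcription. ARNTL and CLOCK pair on E-box sequences and switch on the period and cryptochrome genes, whose proteins return to the nucleus and block the pair. The same pair switches on Nr1d1 and Nr1d2, whose proteins, REV-ERB alpha and beta, bind RORE sequences and repress Arntl, and on Dbp and Tef, which carry the rhythm to D-box sequences of output genes. Macrophages are known to hold such a clock, and REV-ERB alpha is known to repress inflammatory genes in them.

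The promoter sequences of 4 genes are shown, each as 1 window with a motif match, because these genes are among the called differences below: Nr1d1 had the largest change after IC of the 10, Tef rose on average over the subsets, and Per1 and Arntl differed between subsets. Nr1d2 and Clock were also called between subsets, but their windows held no match and are not shown. They are RefSeq windows on GRCm38.p6, from 250 bases before to 50 bases after a transcription start, written 5′ to 3′ on the gene's strand, with motif matches in capitals. The windows are chr11:98775328-98775627 (minus strand) for Nr1d1, chr11:69098699-69098998 (plus) for Per1, chr15:81811164-81811463 (plus) for Tef and chr7:113207261-113207560 (plus) for Arntl.
Nr1d1: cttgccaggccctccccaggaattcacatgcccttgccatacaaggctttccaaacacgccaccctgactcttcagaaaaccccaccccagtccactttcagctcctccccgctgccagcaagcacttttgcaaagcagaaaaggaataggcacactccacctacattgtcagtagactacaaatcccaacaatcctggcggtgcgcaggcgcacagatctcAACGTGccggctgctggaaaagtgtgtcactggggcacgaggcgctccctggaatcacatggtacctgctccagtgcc
Per1: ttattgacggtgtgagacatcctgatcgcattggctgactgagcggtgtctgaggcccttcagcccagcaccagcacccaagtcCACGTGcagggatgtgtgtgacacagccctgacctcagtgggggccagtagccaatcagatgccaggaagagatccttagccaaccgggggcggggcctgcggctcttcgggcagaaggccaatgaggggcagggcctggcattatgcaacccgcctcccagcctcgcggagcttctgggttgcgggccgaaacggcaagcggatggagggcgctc
Tef: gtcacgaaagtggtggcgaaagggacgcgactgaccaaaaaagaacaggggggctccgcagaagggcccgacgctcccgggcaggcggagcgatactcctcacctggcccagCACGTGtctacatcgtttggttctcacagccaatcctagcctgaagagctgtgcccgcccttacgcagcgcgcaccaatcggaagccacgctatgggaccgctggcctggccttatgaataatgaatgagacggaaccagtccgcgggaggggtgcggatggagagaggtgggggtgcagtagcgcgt
Arntl: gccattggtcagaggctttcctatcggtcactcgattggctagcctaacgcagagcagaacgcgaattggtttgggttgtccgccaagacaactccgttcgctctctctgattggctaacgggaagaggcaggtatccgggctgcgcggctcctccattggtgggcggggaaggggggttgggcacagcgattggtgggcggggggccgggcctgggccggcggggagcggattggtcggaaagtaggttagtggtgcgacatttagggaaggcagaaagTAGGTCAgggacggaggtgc
Motifs were searched on both strands. They were the E-box CACGTG, the weaker E-box form CACGTT, the D-box in the form TTATGTAA or TTACGTAA, the RORE core in the form TAGGTCA or TGGGTCA, and the cyclic AMP response element TGACGTCA. In Nr1d1 the capitals mark the weaker E-box form on the opposite strand, which begins 28 bases before the start. In Per1 and Tef they mark the E-box, 166 and 138 bases before it, and in Arntl the first RORE core, 30 bases after it. Over the 14 windows that RefSeq gave for 9 of the 10 genes (Per2 was not among them), the E-box was found in Per1, Tef and Cry1, its weaker form in Nr1d1 and Cry1, the first D-box in Per3 and the first RORE core in Arntl. Of all 32851 windows of this length in the table, 7.15% held the E-box, 4.69% its weaker form, 0.938% and 0.119% the D-box forms, 2.61% and 3.98% the RORE cores and 1.79% the cyclic AMP element. By gene, as the matches above are counted, 8.09% of 27025 genes held the E-box and 5.44% its weaker form. The D-box forms were held by 1.11% and 0.126%, the RORE cores by 2.97% and 4.57% and the cyclic AMP element by 2.03%. The matches did not overlap each other, and a match is a run of letters, not a measured binding site.

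Total counts per library lay between 245903 and 2172358. The MHCII+CD11c- libraries after IC were the smallest, with a lowest of 245903 and a median of 381217, against 837439 to 985186 in the untreated libraries of that subset. Levels are given as CPM scaled by TMM, so that 3 counts, taken as the floor of detection, stood at 7.87 and 12.2 CPM of the library totals in the 2 smallest libraries and at 1.38 to 4.47 CPM in the other 16. All 8 macrophage markers (Adgre1, Csf1r, Cd68, Mertk, Fcgr1, C1qa, C1qb and C1qc) had counts in every group, the 4 class II genes summed to 36.0 to 113 CPM in the LYVE1+CX3CR1+ libraries against 6754 or more in the others, and Itgax (CD11c) stood at 239 to 381 CPM in the MHCII+CD11c+ libraries against at most 70.3 CPM elsewhere. In these bulk samples, a smaller share of cells with an RNA and less of that RNA per cell cannot be told apart.

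Among the 10 genes, levels per kilobase of merged exon can be compared with each other. In untreated LYVE1+CX3CR1+ macrophages, Nr1d1 and Per1 had the highest mean levels, 24.8 and 24.5 CPM per kb. Arntl followed at 10.8, Nr1d2 at 8.44, Clock at 6.78, Cry1 at 6.13, Tef at 5.84, Per2 at 5.20 and Dbp at 3.62 CPM per kb, and Per3 was lowest at 0.568 CPM per kb. In the other 5 groups Per1 was the highest of the 10 on this scale, at 16.9 to 35.3 CPM per kb, and Per3 the lowest, at 0.334 to 1.12 CPM per kb. Dbp and Per3 had 0 to 28 and 1 to 23 counts per library, so their differences were estimated with wide intervals throughout.

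**Figure D1:**
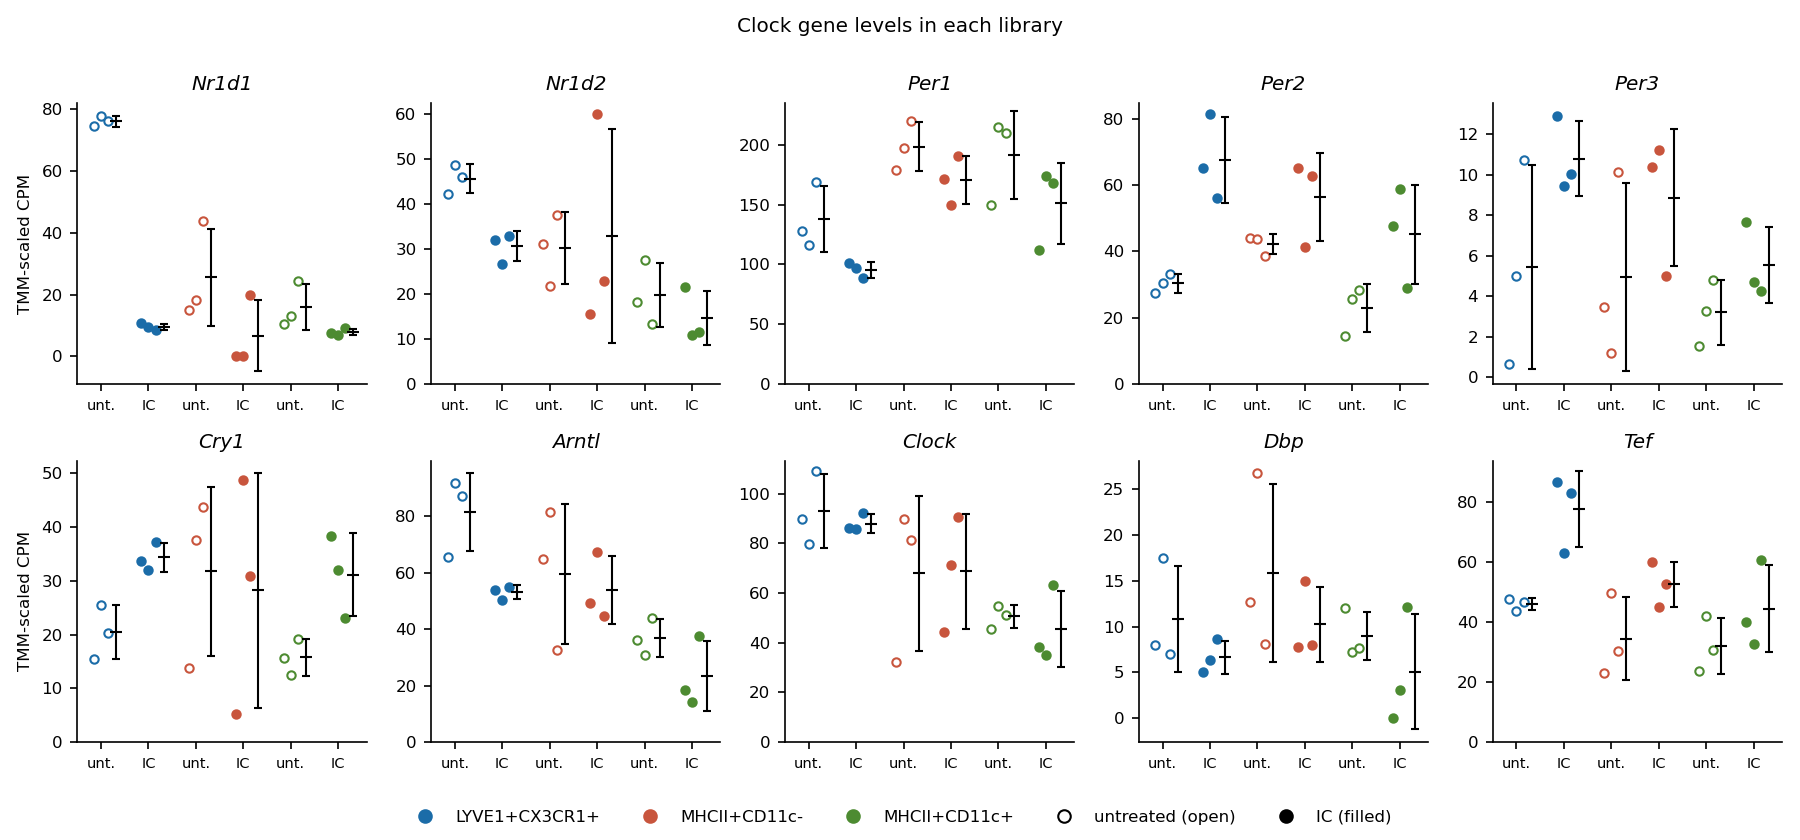
TMM-scaled CPM of each of the 10 clock genes (y axis, linear) in each of the 18 libraries, by group (x axis: untreated and IC for each subset). Open points are untreated and filled points IC libraries, colours are subsets, and the bar beside each group is the mean with the SD of 3 libraries. Nr1d1 stands at 74.5 to 78.0 CPM in untreated LYVE1+CX3CR1+ libraries and at or below 43.7 CPM in all others.

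Nr1d1, which encodes REV-ERB alpha, had the largest change of the 10 genes. Its level was 74.5, 78.0 and 76.1 CPM in the 3 untreated LYVE1+CX3CR1+ libraries and 10.7, 9.46 and 8.61 CPM in the 3 libraries after IC. All 3 IC libraries lay below all 3 untreated ones, and the means were 76.2 ± 1.75 and 9.58 ± 1.04 CPM (SD, n = 3 each), 7.95-fold apart. Nr1d1 fell by 2.98 on the log2 scale (SE 0.48, 95% interval -3.96 to -2.01, adjusted p = 0.00181, edgeR's quasi-likelihood test, adjusted by Benjamini-Hochberg over the 10550 genes that passed a filter on low counts, all 10 clock genes among them) and ranked 8 of 10550 by p. It was the 1 gene of the 10 that passed the test in this subset, where 0.464% of all genes tested did. In each fit that left out 1 of the 6 libraries it passed too, with adjusted p of 0.0110 to 0.0223. P-values here and below measure the spread between libraries within groups, in 1 fit that takes all 18 libraries as independent. Each library is a pool of 3 mice, but libraries of different subsets may come from the same pool. DESeq2 gave a like log2 change of -3.00 with an unadjusted p of 8.75e-10 but, after its own filter on mean counts, no adjusted p.

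In MHCII+CD11c- macrophages Nr1d1 stood at 15.03, 18.2 and 43.7 CPM without treatment. After IC, 2 libraries had 0 counts, which allows up to 7.87 and 12.2 CPM of their totals, and the third had 20 counts, or 19.9 CPM. The IC group thus overlapped the untreated one through a single library, and the change of -1.31 (SE 0.60, adjusted p = 0.301) did not pass the test. Without that library, MHCII+CD11c- IC replicate 3, the gene passed with an adjusted p of 0.0180, from a fit in which both remaining IC libraries had no count of it.

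In MHCII+CD11c+ macrophages Nr1d1 stood at 10.5, 13.1 and 24.5 CPM without treatment and at 7.68, 7.04 and 9.09 CPM after IC. The groups did not overlap, but the IC libraries rested on 5, 9 and 15 counts, and the change of -0.999 (SE 0.54, adjusted p = 0.603) did not pass. The fall in LYVE1+CX3CR1+ macrophages differed from that in MHCII+CD11c+ macrophages by -1.98 (95% interval -3.49 to -0.48, adjusted p = 1.0) and from that in MHCII+CD11c- macrophages by -1.67 (95% interval -3.28 to -0.07, adjusted p = 0.751), so edgeR called no difference between subsets. No clock gene had a called difference of this kind in any of the 3 pairs of subsets by edgeR, and DESeq2 called 0 too, with an adjusted p for 1 of the 10 genes in each of the first 2 pairs below. By edgeR 1, 1 and 0 of the 10 had an unadjusted p under 0.05, and 0, 0.00948 and 0.00948% of all genes were called, in the order LYVE1+CX3CR1+ against MHCII+CD11c-, LYVE1+CX3CR1+ against MHCII+CD11c+, and MHCII+CD11c+ against MHCII+CD11c-.

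Nr1d1 lies on chromosome 11 at 98767932-98775333 (GRCm38, GENCODE vM21, minus strand), and its 3′ end shares 263 exonic bases with Thra, the thyroid hormone receptor alpha gene on the opposite strand. The kit keeps strand, but the strand setting of the counting is not given in the sources used here, so reads in those bases cannot be assigned with certainty. Thra itself had 29.5, 25.0 and 28.9 CPM in untreated LYVE1+CX3CR1+ libraries and 19.7, 18.4 and 21.0 CPM after IC, and its change of -0.50 (SE 0.37, adjusted p = 0.801) did not pass. Sphk2, which shares 539 exonic bases with Dbp on the opposite strand, did not pass in any subset either.

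Markers of some other cell types differed in summed level between the arms. The sum of 8 neutrophil markers was 13.1 to 15.5 CPM and 19.1 to 163 CPM in LYVE1+CX3CR1+ libraries, 744 to 1832 CPM and 1491 to 4132 CPM in MHCII+CD11c- libraries, and 20.3 to 578 CPM and 1012 to 2261 CPM in MHCII+CD11c+ libraries, without treatment and after IC. The 5 erythroid markers summed to 4.03 to 1143 CPM without treatment and 0 to 37.1 CPM after IC in LYVE1+CX3CR1+ libraries. These ranges overlapped, with medians of 9.65 and 11.95 CPM. In that subset edgeR called 0 of the 5, though all 5 were fitted below 0 with an unadjusted p under 0.05. On average over the subsets 5 of the 8 neutrophil markers and 4 of 6 monocyte markers rose with IC and 5 of 5 erythroid markers fell, while 0 of 3 tested endothelial and 0 of 5 tested fibroblast markers were called, in any subset or on average, by edgeR. Adipocyte markers summed to at most 9.38 CPM and muscle markers to 8.49 to 159 CPM over all libraries. In MHCII+CD11c- macrophages Itgax rose by 2.75 (SE 0.63, adjusted p = 0.0261) and 3 of 4 class II genes fell. Of the 5 markers of the LYVE1+CX3CR1+ subset (Lyve1, Cx3cr1, Vsig4, Timd4 and Folr2), Lyve1 (1.54, SE 0.28), Vsig4 (1.17, SE 0.24) and Cx3cr1 (0.85, SE 0.20) rose with IC in MHCII+CD11c+ macrophages, where the sum of the 5 went from 799 to 892 CPM without treatment to 1416 to 1774 CPM. In MHCII+CD11c- macrophages their sum was 1698 to 1914 CPM without treatment and 1498 to 3711 CPM after IC, with medians of 1877 and 3106 CPM, and 0 of 5 were called there or in LYVE1+CX3CR1+ macrophages by edgeR, with 2 and 0 at an unadjusted p under 0.05. The part of these markers and cell types in the changes of the clock genes was not tested.

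Nr1d2, which encodes the second REV-ERB, stood at 42.3, 48.7 and 46.1 CPM in untreated LYVE1+CX3CR1+ macrophages and at 32.04, 26.8 and 33.0 CPM after IC. The groups did not overlap, and the change of -0.58 (SE 0.34, adjusted p = 0.692) did not pass. Within a library, where no scaling between libraries enters, the log2 ratio of Nr1d2 to Nr1d1 CPM was -0.72 ± 0.07 (SD, n = 3) without treatment and 1.53 ± 0.21 after IC. Such ratios are not per length, so they are read only between libraries. In the MHCII+ subsets Nr1d2 overlapped between treatments, at 21.9 to 37.6 and 15.6 to 59.9 CPM in MHCII+CD11c- libraries and at 13.4 to 27.5 and 10.9 to 21.5 CPM in MHCII+CD11c+ libraries.

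Per2 encodes a repressor of the ARNTL and CLOCK pair. In LYVE1+CX3CR1+ macrophages it stood at 27.5, 30.6 and 33.2 CPM without treatment and at 65.2, 81.4 and 55.9 CPM after IC. Every IC library lay above every untreated one, yet the change of 1.14 (SE 0.28, unadjusted p = 3.76e-04, adjusted p = 0.0696) did not pass across all genes. It passed in 6 of 9 alternative fits, DESeq2 among them, and adjusted p over the 9 lay between 0.00255 and 0.0814, but in 0 of 6 fits that left out 1 library (adjusted p 0.0611 to 0.418). In MHCII+CD11c+ macrophages Per2 stood at 14.6, 25.5 and 28.3 CPM and after IC at 47.6, 58.7 and 29.1 CPM, without overlap, with a change of 0.97 (SE 0.30, adjusted p = 0.166). In MHCII+CD11c- macrophages the values were 43.9, 43.8 and 38.6 CPM and 65.1, 41.2 and 62.8 CPM, which overlap, and the change was 0.46 (SE 0.31, adjusted p = 0.519).

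Per1, the period gene with the highest levels, is also known as an immediate target of stress hormones and cyclic AMP. Its level in LYVE1+CX3CR1+ macrophages was 128, 117 and 169 CPM without treatment and 101, 96.7 and 88.4 CPM after IC, again with no overlap, and the change was -0.53 (SE 0.19, adjusted p = 0.326). The changes in MHCII+CD11c- and MHCII+CD11c+ macrophages were -0.20 (SE 0.21) and -0.32 (SE 0.19), neither called. Per2 and Per1 thus had fitted changes of opposite sign in all 3 subsets, and the log2 ratio of Per2 to Per1 within a library was -2.11 ± 0.21 without treatment and -0.50 ± 0.23 after IC in LYVE1+CX3CR1+ macrophages (SD, n = 3 each). The same ratio was -2.20 ± 0.24 and -1.59 ± 0.22 in MHCII+CD11c- and -3.02 ± 0.20 and -1.74 ± 0.65 in MHCII+CD11c+ macrophages, given as a description with no test. Per3, with 1, 8 and 20 counts without treatment and 23, 18 and 21 counts after IC in LYVE1+CX3CR1+ libraries, had a fitted change of 0.94 with a 95% interval of -0.52 to 2.40.

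Cry1, whose protein blocks ARNTL and CLOCK, stood at 15.4, 25.6 and 20.4 CPM in untreated LYVE1+CX3CR1+ macrophages and at 33.7, 32.04 and 37.3 CPM after IC. The groups were separate there and in MHCII+CD11c+ macrophages (15.7, 12.4 and 19.2 CPM against 38.4, 32.06 and 23.0 CPM), while neither change passed, at 0.74 (SE 0.40, adjusted p = 0.647) in the former and 0.94 (SE 0.42, adjusted p = 0.478) in the latter. MHCII+CD11c- libraries after IC spread from 5.21 to 48.7 CPM of Cry1, across the whole range of the untreated ones (13.9 to 43.7 CPM).

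The activator Arntl stood at 65.8, 91.7 and 87.4 CPM in untreated LYVE1+CX3CR1+ macrophages and at 54.0, 50.4 and 55.0 CPM after IC, without overlap, with a change of -0.62 (SE 0.30, adjusted p = 0.549). The groups of its partner Clock overlapped. Clock stood at 79.8 to 109 CPM and at 85.6 to 92.3 CPM in that subset, and its change of -0.08 had a 95% interval of -0.64 to 0.48. Arntl had a change of like size, -0.61 (SE 0.33, adjusted p = 0.610), in MHCII+CD11c+ macrophages. In MHCII+CD11c- macrophages its change was -0.19 (SE 0.35, adjusted p = 0.859). The groups of Arntl overlapped in both. The log2 ratio of Arntl to Nr1d1 within a library was 0.08 ± 0.23 in untreated LYVE1+CX3CR1+ macrophages and 2.31 ± 0.16 after IC. In MHCII+CD11c+ macrophages the same ratio was 1.20 ± 0.42 and 1.29 ± 0.53, within the spread of the libraries. In MHCII+CD11c- macrophages it was 1.22 ± 1.41 and 3.91 ± 2.44, and the mean after IC takes in libraries with 0 counts of Nr1d1.

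**Figure D2:**
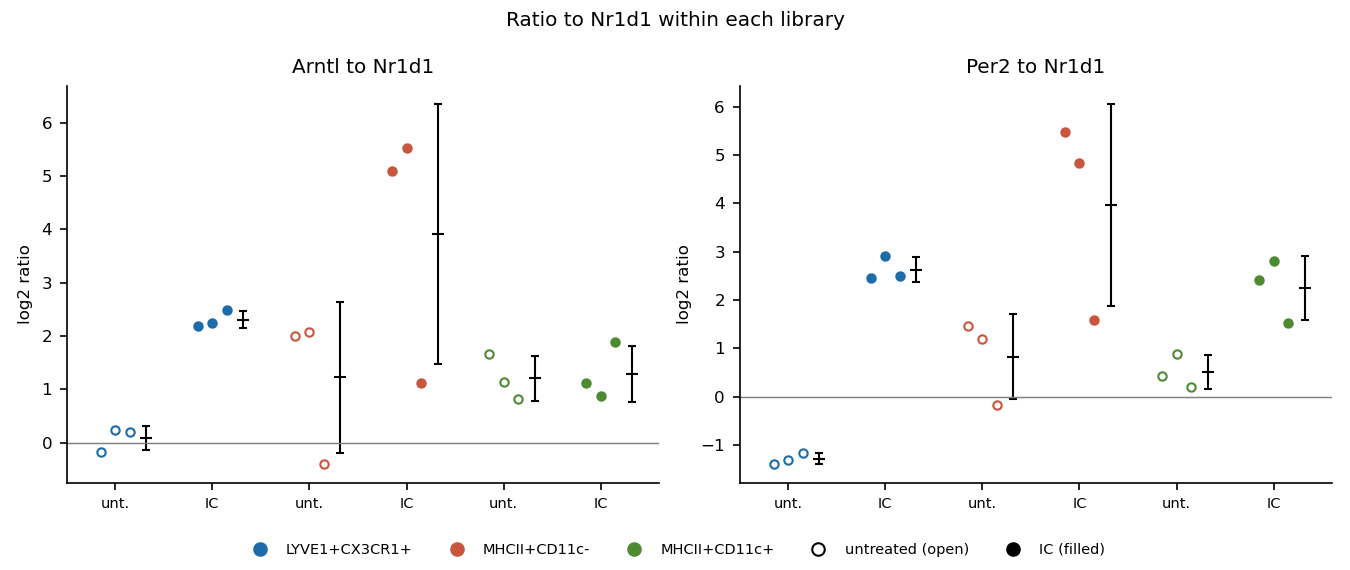
Log2 ratio of Arntl to Nr1d1 (left) and of Per2 to Nr1d1 (right) within each library (y axis, prior count of 2), by group (x axis). Points are libraries, open for untreated and filled for IC, with the mean and SD of 3 libraries beside them. In LYVE1+CX3CR1+ libraries the Per2 ratio is -1.39 to -1.16 without treatment and 2.45 to 2.92 after IC, and the 2 highest IC points of MHCII+CD11c- are libraries with 0 counts of Nr1d1.

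The output genes Tef and Dbp encode related activators at D-boxes, and their fitted changes had opposite signs in each subset. Tef stood at 47.6, 43.7 and 46.6 CPM in untreated LYVE1+CX3CR1+ macrophages and at 86.6, 63.0 and 83.2 CPM after IC, with no overlap and a change of 0.75 (SE 0.27, adjusted p = 0.324). Dbp, at 8.05, 17.5 and 6.97 CPM and then 5.06, 6.30 and 8.61 CPM, had a change of -0.69 with a 95% interval of -2.004 to 0.63. In the MHCII+ subsets Tef overlapped between treatments, with changes of 0.62 (SE 0.33) in MHCII+CD11c- and 0.50 (SE 0.29) in MHCII+CD11c+ macrophages. Dbp overlapped there too, with changes of -0.71 (SE 0.74) and -0.60 (SE 0.68) and 95% intervals on both sides of 0. It was not counted at all in 1 of the MHCII+CD11c+ libraries after IC, which allows up to 4.47 CPM.

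Counted over the 10 genes, 7 had groups that did not overlap in LYVE1+CX3CR1+ macrophages (Per2, Cry1 and Tef higher, Nr1d1, Nr1d2, Per1 and Arntl lower after IC), where 19.1% of all genes tested did not overlap. In MHCII+CD11c- macrophages 0 of 10 were separate against 14.2% of all genes, and in MHCII+CD11c+ macrophages 3 of 10 (Per2 and Cry1 higher, Nr1d1 lower) against 18.4%. No clock gene passed the test in either MHCII+ subset, where 1.06% and 0.673% of all genes did, by edgeR or by DESeq2. An unadjusted p under 0.05 was reached there by 1 of the 10 genes in MHCII+CD11c- and 2 of the 10 in MHCII+CD11c+ macrophages with edgeR. The median change of the 10 genes was -0.31, -0.11 and -0.22 in LYVE1+CX3CR1+, MHCII+CD11c- and MHCII+CD11c+ macrophages, and that of all genes tested -0.02, -0.01 and -0.01.

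Averaged over the 3 subsets, 3 of the 10 clock genes passed the test, where 6.21% of all genes did. Nr1d1 fell by 1.77 on the log2 scale (SE 0.31, adjusted p = 7.50e-04), and it was lower after IC in 8 of the 9 IC libraries than in every untreated library of the same subset. Per2 rose by 0.86 (SE 0.17, adjusted p = 0.00288) and Tef by 0.63 (SE 0.17, adjusted p = 0.0265). Per1 stood at -0.35 (SE 0.11, adjusted p = 0.0658) and passed in 2 of 9 alternative fits, DESeq2 (adjusted p = 0.0403) and the one limited to genes at 10 counts or more throughout, and in 1 of 18 that left out a library, MHCII+CD11c+ untreated replicate 1. Arntl stood at -0.47 (SE 0.19, adjusted p = 0.152), and Clock at -0.04 with a 95% interval of -0.40 to 0.31. Libraries of 1 treatment and number may come from the same mice, which this fit does not count. With each such set of 3 libraries averaged first, so that 3 values stood against 3, limma called Nr1d1 (adjusted p = 0.00933) and Per2 (adjusted p = 0.0377) but not Tef (adjusted p = 0.152). Tef also missed the threshold in 8 of the 18 fits that left out 1 library, with adjusted p up to 0.0897. These libraries were LYVE1+CX3CR1+ untreated 2 and IC 1, MHCII+CD11c- untreated 1 and 3 and IC 1, and MHCII+CD11c+ untreated 1 and 3 and IC 3. Leaving out MHCII+CD11c- IC replicate 3 moved the fitted average of Nr1d1 to -4.05, with no count of it left in that group.

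**Figure D3:**
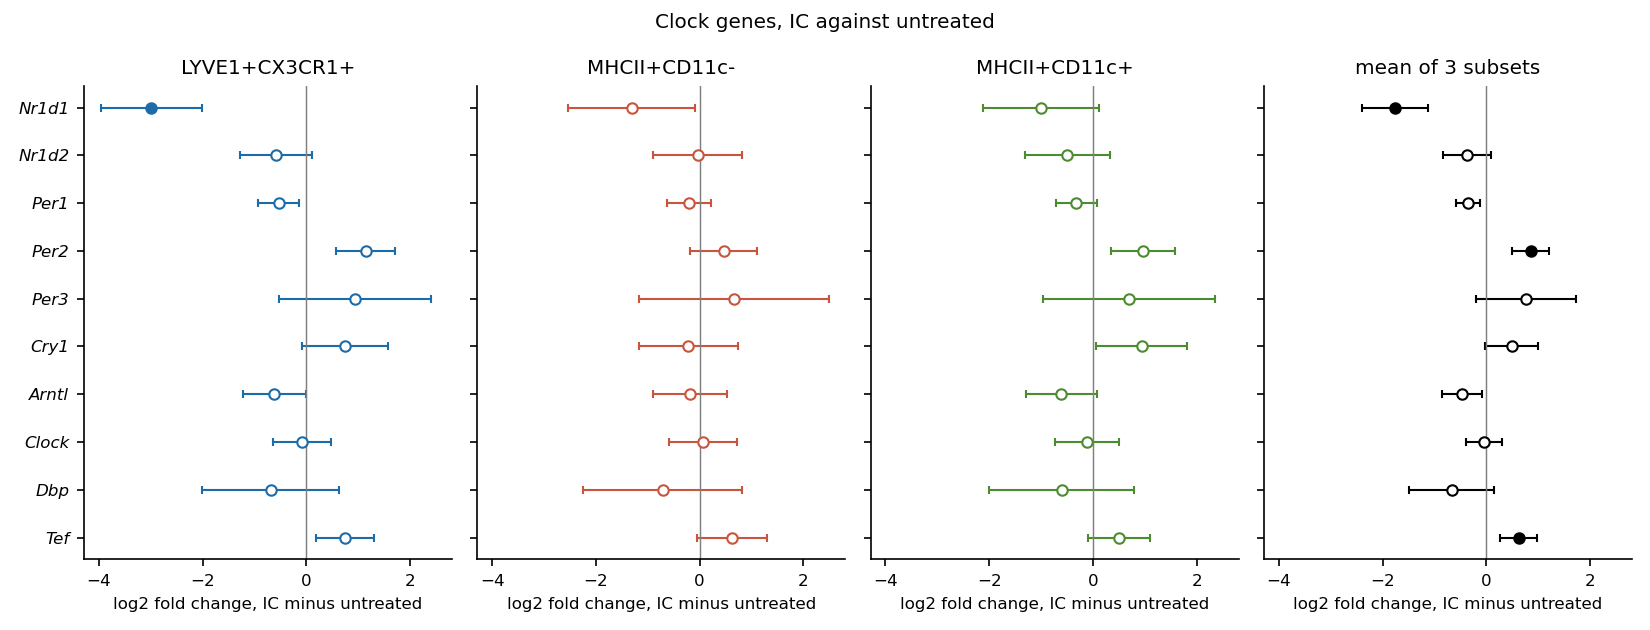
Log2 fold change of each clock gene, IC minus untreated (x axis), in each subset and averaged over the 3 subsets, from edgeR's quasi-likelihood fit to 18 libraries, with 95% intervals. Filled points have an adjusted p under 0.05 over 10550 genes. Nr1d1 is filled at -2.98 in LYVE1+CX3CR1+ macrophages, and Nr1d1, Per2 and Tef are filled in the average at -1.77, 0.86 and 0.63.

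Without treatment, LYVE1+CX3CR1+ macrophages had more Nr1d1 than either other subset. Nr1d1, at 74.5 to 78.0 CPM, was 1.55 log2 units higher in LYVE1+CX3CR1+ than in MHCII+CD11c- macrophages (SE 0.46, adjusted p = 0.0253) and 2.23 higher than in MHCII+CD11c+ macrophages (SE 0.45, adjusted p = 5.32e-04). The first of these calls was lost in 5 of the 6 fits that left out 1 library, all but the one without MHCII+CD11c- untreated replicate 3, with adjusted p up to 0.127, and the second was lost in 0 of 6. Nr1d1 was the 1 clock gene called against MHCII+CD11c- macrophages, where 11.4% of all genes were called. Groups were separate for 4 of the 10 genes (Nr1d1 and Nr1d2 higher, Per1 and Per2 lower in LYVE1+CX3CR1+), against 28.9% of all genes.

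Against MHCII+CD11c+ macrophages, 4 of the 10 clock genes were higher in LYVE1+CX3CR1+ macrophages and none was lower, where 21.8% of all genes were called in either direction. Besides Nr1d1, these were Nr1d2 (45.7 ± 3.22 against 19.7 ± 7.12 CPM, difference 1.22, SE 0.35, adjusted p = 0.0117), Arntl (81.6 ± 13.9 against 37.0 ± 6.75 CPM, difference 1.13, SE 0.30, adjusted p = 0.00688) and Clock (93.0 ± 15 against 50.6 ± 4.76 CPM, difference 0.88, SE 0.28, adjusted p = 0.0235). Both activators and both REV-ERB genes were thus higher. Per1 stood at -0.47 (SE 0.19, adjusted p = 0.0818). Groups were separate for 5 of the 10 genes, all higher in LYVE1+CX3CR1+ libraries, against 41.3% of all genes. The call of Nr1d2 was lost without MHCII+CD11c+ untreated replicate 3 (adjusted p = 0.0837). That of Clock was lost without replicate 1 or 3 of either subset, with adjusted p up to 0.116, and that of Arntl in 0 of 6 such fits.

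The 2 MHCII+ subsets did not have a called difference in any clock gene without treatment, by edgeR or DESeq2, where edgeR called 3.49% of all genes. All 10 genes had a fitted level below that of MHCII+CD11c- in MHCII+CD11c+ macrophages, with a median of -0.66 against -0.01 for all genes, and 3 (Per2, Cry1 and Arntl) had an unadjusted p under 0.05. Per2 was the 1 gene of the 10 with separate groups (38.6 to 43.9 CPM against 14.6 to 28.3 CPM), against 22.4% of all genes, and its difference of -0.88 (SE 0.30) had an adjusted p of 0.114.

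After IC, no difference in Nr1d1 was called between LYVE1+CX3CR1+ macrophages and the others. The difference in Nr1d1 was -0.12 (95% interval -1.38 to 1.13) from MHCII+CD11c- and 0.25 (95% interval -0.92 to 1.41) from MHCII+CD11c+ macrophages. Without MHCII+CD11c- IC replicate 3, whose 20 counts are all of that group's Nr1d1, the first of these was fitted at 6.73 (adjusted p = 0.0404), against a pair of libraries with no count of the gene. Against MHCII+CD11c+ macrophages Nr1d2 at 1.14 (SE 0.39, adjusted p = 0.0372), Arntl at 1.12 (SE 0.33, adjusted p = 0.0150) and Clock at 0.92 (SE 0.29, adjusted p = 0.0256) were higher in LYVE1+CX3CR1+ macrophages, and Per1 was lower (-0.68, SE 0.20, adjusted p = 0.0135). These 4 of 10 compare with 19.7% of all genes, and Tef stood at 0.78 (SE 0.28, adjusted p = 0.0504). Tef passed in 7 of 9 alternative fits, DESeq2 among them, with adjusted p of 0.0216 to 0.0532 over the 9, and in 2 of the 6 that left out a library. Groups were separate for 6 of the 10 genes against 38.1% of all genes. Leaving out 1 IC library at a time, the call of Arntl was lost without MHCII+CD11c+ 1 or 2 (adjusted p up to 0.0973), and that of Clock without these or LYVE1+CX3CR1+ 3 (up to 0.124). The call of Nr1d2 was lost without LYVE1+CX3CR1+ 1 or 3 or MHCII+CD11c+ 2 or 3 (up to 0.138) and in the fit with the pool as a block (adjusted p = 0.0540), and that of Per1 without replicate 2 or 3 of either subset (up to 0.115).

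Per1 was the 1 clock gene called between LYVE1+CX3CR1+ and MHCII+CD11c- macrophages after IC, at 88.4 to 101 CPM against 150 to 190 CPM (difference -0.86, SE 0.21, adjusted p = 0.00715), where 9.77% of all genes were called. The call was lost without MHCII+CD11c- IC replicate 3 (adjusted p = 0.0619). Groups were separate for 2 of the 10 genes, Per1 and Tef, against 25.1% of all genes. Between the 2 MHCII+ subsets after IC no clock gene was called by edgeR or DESeq2, where edgeR called 2.84% of all genes. Of the 10, 2 genes had an unadjusted p under 0.05, Nr1d2 at -1.10 (SE 0.44) and Arntl at -1.09 (SE 0.37), and Arntl was the 1 with separate groups, against 16.8% of all genes. These comparisons share libraries with the comparisons of IC with untreated macrophages.

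**Figure D4:**
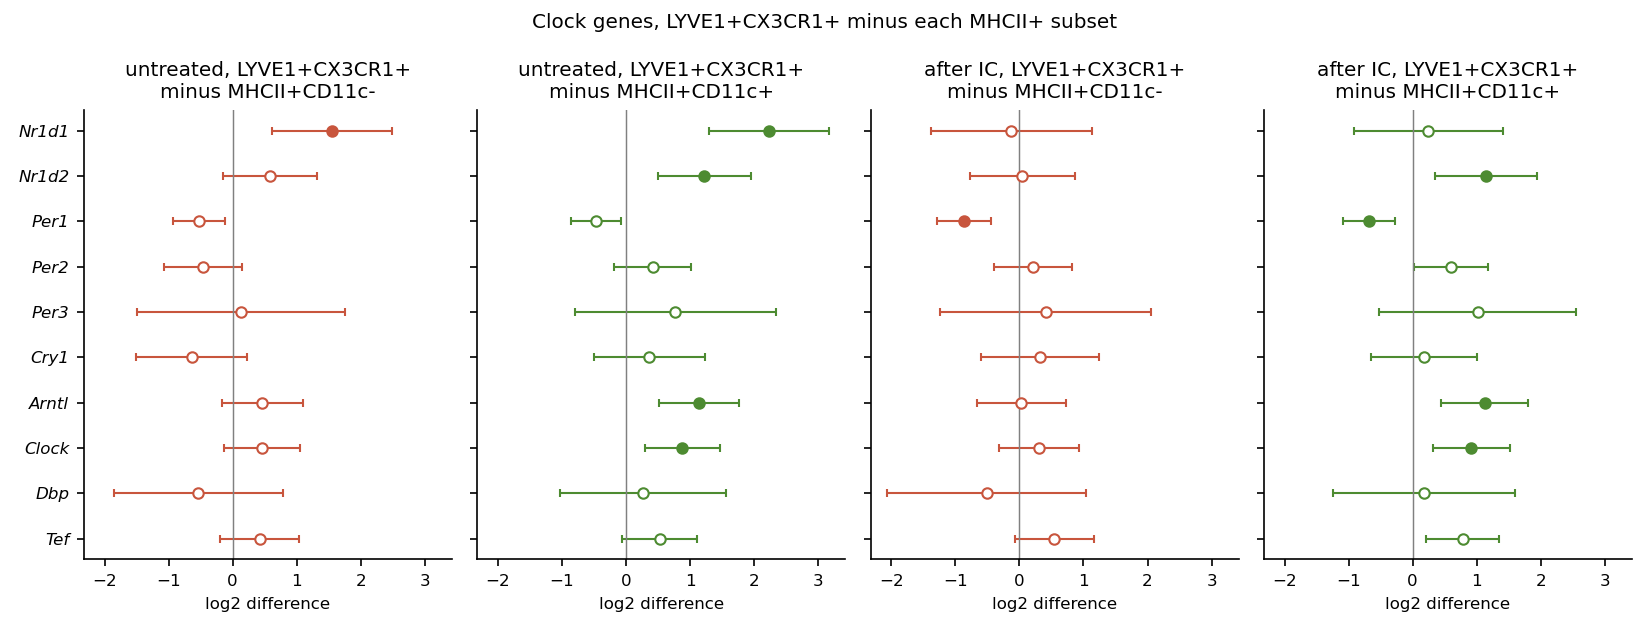
Log2 difference of each clock gene between LYVE1+CX3CR1+ macrophages and each MHCII+ subset (x axis), without treatment and after IC, from the same fit, with 95% intervals. Filled points have an adjusted p under 0.05 over 10550 genes. Nr1d1 is filled at 1.55 and 2.23 without treatment and open at -0.12 and 0.25 after IC, while Arntl, Clock and Nr1d2 are filled against MHCII+CD11c+ in both arms.

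In the order of group means, untreated LYVE1+CX3CR1+ macrophages came first for Nr1d1, Nr1d2, Arntl and Clock, and LYVE1+CX3CR1+ macrophages after IC came first for Per2, Per3, Cry1 and Tef. The first place was separate from the second in Nr1d1 (76.2 against 25.7 CPM) and in Tef (77.6 against 52.5 CPM), and overlapped it in the other 8 genes. Per1 was lowest in both LYVE1+CX3CR1+ groups, and MHCII+CD11c+ macrophages, in 1 arm or the other, came last for the other genes except Nr1d1.

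Over the 18 libraries, after subtracting each subset's mean of log2 CPM, the clock genes were correlated with each other to different degrees and in both signs. The highest Pearson correlation among the 45 pairs was that of Arntl with Dbp (r = 0.76), followed by Nr1d1 with Per1 (r = 0.66). Per2 ran against Arntl (r = -0.66) and Dbp (r = -0.63), and Nr1d1 against Tef (r = -0.56). With the mean of each subset and treatment subtracted instead, Arntl with Dbp stood at 0.69, Nr1d1 with Per1 at 0.39, Per2 with Arntl at -0.38 and with Dbp at -0.51, and Nr1d1 with Tef at 0.07, so the last of these relations was not seen within groups. These values describe 18 libraries that share treatments, depths and perhaps mice, and were not tested.

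**Figure D5:**
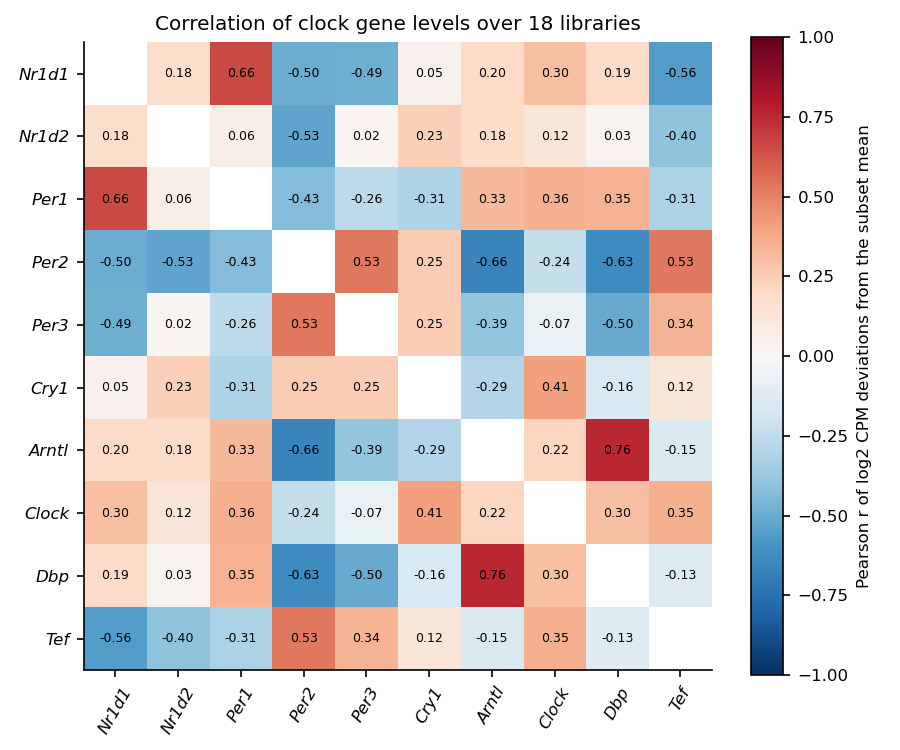
Pearson r (colour and number) between each pair of clock genes over 18 libraries, computed on log2 CPM minus the mean of the library's subset. Rows and columns are genes. Arntl with Dbp (0.76) and Nr1d1 with Per1 (0.66) are the most positive pairs, and Per2 with Arntl (-0.66) is the most negative.

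Likeness to Nr1d1 over 8823 genes was taken as r after subtracting each subset's mean, which keeps the difference between treatments. It takes in the 2 smallest libraries, MHCII+CD11c- after IC, which had 0 counts of Nr1d1. No r within groups was computed for these genes. Those most like Nr1d1 were Akap13, a kinase anchor (r = 0.89), Mamdc2, a matrix protein gene (r = 0.89), and the nuclear receptor coactivator gene Ncoa2 (r = 0.89). Arhgap18 (r = 0.88) and Ing2 (r = 0.88) followed. Mamdc2 stood at 132 ± 27.0 CPM in untreated and 46.9 ± 5.81 CPM in IC libraries of LYVE1+CX3CR1+ macrophages, and at 122 ± 36.5 and 33.1 ± 20.8 CPM in MHCII+CD11c- macrophages. The most opposed were the translation factor gene Eif5a (r = -0.91), the tubulin gene Tuba1b (r = -0.88), Pa2g4 (r = -0.88), the proteasome gene Psma4 (r = -0.86) and the chaperonin gene Cct5 (r = -0.86). Eif5a stood at 247 ± 17.99 and 351 ± 32.8 CPM in LYVE1+CX3CR1+ macrophages (SD, n = 3 each). Among the other clock genes Per1 came nearest to Nr1d1, at place 360 of 8823.

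The wider clock list held 24 further genes, of which 19 passed the filter on low counts. With edgeR 0 of the 19 were called with IC in each single subset, and 2, 2 and 1 had an unadjusted p under 0.05 in LYVE1+CX3CR1+, MHCII+CD11c- and MHCII+CD11c+ macrophages. DESeq2 called 0 as well, with an adjusted p for 11 of the 19 in the first of these. On average over the subsets edgeR called 1 of the 19, where 6.21% of all genes were called. It was Nampt, which makes the NAD+ precursor and is a known clock output, with a rise of 0.51 (SE 0.13, adjusted p = 0.0183). DESeq2 called 2 of the 19 in that average, Nampt and Cry2. Between untreated LYVE1+CX3CR1+ and MHCII+CD11c+ macrophages 6 of the 19 were higher in LYVE1+CX3CR1+ and 1 was lower, where 21.8% of all genes were called. Those higher included Cry2, a cryptochrome (1.39, SE 0.31), Rora, the activator at RORE sequences (1.79, SE 0.42), Bhlhe41, a repressor at E-boxes (2.23, SE 0.46), Usp2, a deubiquitinase under clock control (2.71, SE 0.54), and the ligase gene Fbxw11 (0.77, SE 0.18). Nfil3, a repressor at D-boxes, was lower (-2.21, SE 0.28), at 40.1 ± 7.34 against 187 ± 42.3 CPM. After IC 6 were higher and 2 lower, where 19.7% of all genes were called. Cry2, Rora, Bhlhe41, Usp2, Fbxw11 and Nfil3 were again called in the same directions, and Sirt1, a deacetylase gene, was lower too (-1.06, SE 0.26).

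Of 6 genes known as REV-ERB targets in macrophages (Mmp9, Cx3cr1, Ccl2, Il6, Il1b and Nlrp3), Il1b, an inflammatory cytokine gene, rose with IC in LYVE1+CX3CR1+ (1.61, SE 0.37, adjusted p = 0.0452) and MHCII+CD11c- macrophages (1.67, SE 0.34, adjusted p = 0.0121). In MHCII+CD11c+ macrophages Cx3cr1, a chemokine receptor gene, was the 1 of the 6 that rose (0.85, SE 0.20, adjusted p = 0.0471). Cx3cr1 is also a marker of the LYVE1+CX3CR1+ subset, and the markers Lyve1 and Vsig4 of that subset rose there too. Nr1d1 was not called with IC in either MHCII+ subset. Of all genes, 0.464, 1.06 and 0.673% were called with IC in LYVE1+CX3CR1+, MHCII+CD11c- and MHCII+CD11c+ macrophages. Ccl2, at -0.67 (SE 0.27) and -0.74 (SE 0.28) in the first 2 subsets, and Il6, Mmp9 and Nlrp3 were not called in any subset. The relation of these genes to Nr1d1 was not tested.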

How the data were processed

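RNA from sorted cells was made into libraries with a SMARTer stranded total RNA pico kit and sequenced on a NovaSeq. Per the labels and methods, the authors trimmed reads with Trim Galore, including the first 3 bases of read 1, checked them with FastQC, aligned them to mm10 with HISAT2 and deposited raw counts per gene from featureCounts for each library. Tool versions and the strand setting are not given in the sources used here. The table that combines the libraries held identical counts and was not used.

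Genes were filtered with filterByExpr (minimum count 10, minimum total 15), which left 10550 of the 17957 symbols with a count. One model with 6 groups was fitted to all 18 libraries with edgeR 4.0.16 (R 4.3.3; TMM factors, quasi-likelihood F test), and p-values were adjusted by Benjamini-Hochberg over all genes tested, with a threshold of 0.05. SE is the size of the log2 fold change divided by the square root of F. Log2 CPM used a prior count of 2. Total counts were 245903 to 2172358 per library, and no pair of replicates agreed within sampling noise. Levels, ratios and correlations are descriptions without a test. The script was tested on simulated data before use.

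The clock genes and the other lists were chosen with earlier results of these data known. Named genes were the 10 clock genes, 24 further clock genes, 6 REV-ERB targets, the 5 genes most like and the 5 most opposed to Nr1d1, genes that overlap a clock gene, and markers of other cell types. Some genes of these lists, among them 1 list of markers of another cell type, are not reported here. Alternatives were DESeq2 size factors, the DESeq2 1.42.0 Wald test, no filter, at least 10 counts in every library, fits to 6 libraries, 1 surrogate variable (sva 3.50.0), replicate blocks, CPM on raw library totals, a prior count of 0.5 for ratios, the 2 smallest libraries left out together and each library left out in turn. Pool means tested with limma 3.58.1 and scaling by library totals alone were added after seeing the data.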

Additional observations from a re-analysis of the deposited data

How the results depend on the processing

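Of the calls for the clock genes, that of Nr1d1 after IC in LYVE1+CX3CR1+ macrophages held in all 6 fits without 1 library (-3.05 to -2.91) and in all 7 other alternatives that gave an adjusted p. In the average over subsets Nr1d1 (-4.05 to -1.55) and Per2 (0.76 to 0.94) held in 18 of 18 such fits, and Tef (0.51 to 0.74) in 10 of 18. Pool means gave Tef at 0.61 (adjusted p = 0.152). Without 1 library the ranges were 1.28 to 2.20 for untreated Nr1d1 in LYVE1+CX3CR1+ minus MHCII+CD11c-, and, minus MHCII+CD11c+, 1.00371 to 1.52 for Nr1d2 and 0.76 to 0.99 for Clock untreated, and 1.02 to 1.43 for Nr1d2, -0.84 to -0.54 for Per1, 0.78 to 1.30 for Clock and 0.87 to 1.78 for Arntl after IC. Per1 after IC minus MHCII+CD11c- ranged over -0.91 to -0.72. The difference of the IC effect on Nr1d1 between LYVE1+CX3CR1+ and MHCII+CD11c- macrophages (-1.67) ranged over -2.31 to 5.18, and took the value 5.18 without MHCII+CD11c- IC replicate 3, when the remaining 2 libraries of that group had 0 counts. In the 2 smallest libraries, 3 counts correspond to 7.87 and 12.2 CPM, which limits what can be seen of a gene at the level of Nr1d1. With a prior count of 0.5 in place of 2, the mean log2 ratio of Arntl to Nr1d1 after IC moved from 3.91 to 5.24 in MHCII+CD11c- macrophages and from 2.31 to 2.43 in LYVE1+CX3CR1+ macrophages.

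With the replicate number as a block, the clock genes called with IC were Nr1d1 in LYVE1+CX3CR1+ macrophages and Nr1d1, Per2 and Tef on average, as without it. The numbers were not taken as pairs in the reported fit. Deviations of same-numbered libraries correlated at -0.0082 to 0.051 between treatments of a subset (9 pairs). Between subsets of a treatment, same-numbered libraries correlated at 0.0085 to 0.231 (18 pairs, 7 above 0.1). Differently numbered ones correlated there at -0.192 to 0.103 (36 pairs, 1 above 0.1). The sources do not say whether libraries of 1 treatment and number share mice. The block moved the count of differences in the IC effect for MHCII+CD11c+ minus MHCII+CD11c- from 1 to 0. A block by pool gave 2 there and 2 (from 1) for LYVE1+CX3CR1+ minus MHCII+CD11c+, and took Nr1d2 after IC in LYVE1+CX3CR1+ minus MHCII+CD11c+ macrophages to 1.15 (adjusted p = 0.0540).

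Counts over all genes moved more. With IC they were 49, 112 and 71 in LYVE1+CX3CR1+, MHCII+CD11c- and MHCII+CD11c+ macrophages as reported, 154, 280 and 157 by DESeq2, 160, 337 and 250 without the filter, 272, 19 and 170 fitted to 6 libraries, 99, 206 and 133 with a surrogate variable, 112, 54 and 144 without both smallest libraries, and 13 to 53, 52 to 182 and 14 to 63 without 1 library. The average gave 655, and 207 by pool means. With at least 10 counts in every library, LYVE1+CX3CR1+ minus MHCII+CD11c- gave 750 of 1207 untreated and 664 of 1031 after IC, and minus MHCII+CD11c+ 1291 of 2303 and 1182 of 2081, with fewer genes tested. Fits to 6 libraries gave 460 after IC minus MHCII+CD11c-, and those without 1 library 609 to 1045. MHCII+CD11c+ minus MHCII+CD11c- gave 368 untreated (581 by DESeq2, 578 without the filter, 587 with a surrogate variable, 187 to 409 without 1 library) and 300 after IC (472, 465, 100 fitted to 6 libraries, 167 to 309). Differences in the IC effect, 0, 1 and 1 in the order of the report, were 12 and 11 by DESeq2 in the first 2 pairs, 20, 27 and 29 without the filter, 1 and 2 in the first 2 with a surrogate variable, 3 and 0 in the last 2 without both smallest libraries and 0 to 1 without 1 library. The causes were not tested. Scaled by library totals alone, genes higher and lower with IC were 80 and 38 (58 and 54 by TMM) in MHCII+CD11c-, 64 and 14 (51 and 20) in MHCII+CD11c+ and 22 and 25 (26 and 23) in LYVE1+CX3CR1+ macrophages.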

Other observations

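Genes known to respond to glucocorticoids, the hormones that follow the daily cycle and also rise with stress, were measured in the same libraries. Fkbp5, a chaperone gene, stood at 15.3 ± 5.43 CPM in untreated and 56.4 ± 18.6 CPM in IC libraries of LYVE1+CX3CR1+ macrophages (SD, n = 3 each) and rose by 1.85 on the log2 scale (SE 0.37, adjusted p = 0.0163). Mt1, a metallothionein gene, rose by 1.33 in that subset (SE 0.23, adjusted p = 0.00432), and Sgk1, a kinase gene, by 1.43 in MHCII+CD11c- macrophages (SE 0.23, adjusted p = 0.00125). Of the 9 genes of the list that were tested, 2, 1 and 0 rose in LYVE1+CX3CR1+, MHCII+CD11c- and MHCII+CD11c+ macrophages and 0 fell, where 0.464, 1.06 and 0.673% of all genes were called. On average over the subsets Fkbp5 (1.22), Sgk1 (0.71) and Mt1 (0.63) rose and 0 of the 9 fell, where 6.21% of all genes were called. Of 9 immediate early and heat shock genes, Hspa1a (0.73) and Hspa1b (0.82), which encode near-identical heat shock proteins, rose on average, while 6 of the 9 had a fitted average change below 0, none of them called by edgeR. In single subsets edgeR called 0 of these 9, and 3, 5 and 2 had an unadjusted p under 0.05 in LYVE1+CX3CR1+, MHCII+CD11c- and MHCII+CD11c+ macrophages. In MHCII+CD11c- macrophages 7 of the 9 had a fitted change below 0, and 8 had separate groups, 6 of them lower after IC, where 14.2% of all genes were separate. In LYVE1+CX3CR1+ macrophages 8 of the 9 were fitted above 0, with 3 separate groups, all higher, where 19.1% of all genes were separate. These lists were chosen with earlier results known, and no relation to the clock genes was tested.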
